A study of Mus musculus with 12 samples.

Results

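The genes described here are 10 components of the bone morphogenetic protein (BMP) and transforming growth factor beta (TGF-beta) pathway that act in endothelial cells, the cells lining blood vessels. They were chosen by symbol: the ligands Bmp4 and Bmp6, the receptors Eng, Acvrl1, Bmpr2 and Tgfbr2, the inhibitory Smads Smad6 and Smad7, and the targets Id1 and Id3. All 10 had a row among the 27825 genes of the deposited table, and all 10 passed the filter on low values, a mean of at least 10 normalized counts. Bulk RNA-seq had been run on endothelial cells sorted from the mesentery or from the epididymal fat pad of mice on either of a pair of diets, with 3 libraries in each of 4 groups. Every group consisted of male ROSA26-eYFP+/+ Cdh5-CreERT2+ mice, in which a tamoxifen-activated Cre recombinase under the endothelial Cdh5 promoter switches on a yellow fluorescent reporter. All of them ate tamoxifen food for 2 weeks from an age of 6 weeks. Their food from 8 weeks on was either normal chow (NC), labelled 5.8% fat, or HFD, a high fat diet labelled 60% fat, for 12 to 13 weeks. Each library came from the pooled tissue of 6 mice, digested with actinomycin D, a blocker of transcription, and sorted by flow cytometry. The titles letter the libraries of a group A, B and C, the descriptions carry numbers (50 to 53, 87 and 88), and the protocol mentions 2 independent replicates without tying them to either, so p-values measure the spread between these libraries, which may be partly technical.

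As background, BMP ligands bind complexes of a type I receptor such as ALK1, the product of Acvrl1, and a type II receptor such as BMPR2, with endoglin, the product of Eng, as a coreceptor. The activated receptors phosphorylate receptor Smads, which enter the nucleus with Smad4 and switch on targets such as Id1 and Id3 as well as the feedback inhibitors Smad6 and Smad7. Inherited loss of ENG or ACVRL1 causes hereditary haemorrhagic telangiectasia in people, and loss of BMPR2 is a cause of pulmonary arterial hypertension.

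RefSeq promoter windows of mouse build GRCm38.p6 matched 7 of the 10 genes by symbol; no window was used here for Acvrl1, Id1 and Smad7. The 250 bases before the start of 4 genes are printed because these genes cover the patterns described below: Eng and Smad6 were lower in epididymal fat, Bmp4 was higher, and Tgfbr2 had no call between tissues. They lie at chr2:32646345-32646594 on the plus strand (Eng), chr9:64022060-64022309 on the minus strand (Smad6), chr9:116175364-116175613 on the minus strand (Tgfbr2) and chr14:46390670-46390919 on the minus strand (Bmp4). Each is written 5′ to 3′ along the gene, and capitals mark GTCT on either strand (AGAC when read on the printed strand), letters that Smad proteins can contact.
Eng: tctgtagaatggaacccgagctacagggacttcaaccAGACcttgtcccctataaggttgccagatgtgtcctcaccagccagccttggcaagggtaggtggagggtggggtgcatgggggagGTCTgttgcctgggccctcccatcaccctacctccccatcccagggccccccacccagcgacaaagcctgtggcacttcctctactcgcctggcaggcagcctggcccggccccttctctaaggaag
Smad6: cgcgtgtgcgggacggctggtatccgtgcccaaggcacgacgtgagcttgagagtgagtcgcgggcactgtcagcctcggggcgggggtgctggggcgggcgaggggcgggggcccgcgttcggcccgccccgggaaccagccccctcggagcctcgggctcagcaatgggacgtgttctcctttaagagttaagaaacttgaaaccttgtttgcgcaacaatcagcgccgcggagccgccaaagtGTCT
Bmp4: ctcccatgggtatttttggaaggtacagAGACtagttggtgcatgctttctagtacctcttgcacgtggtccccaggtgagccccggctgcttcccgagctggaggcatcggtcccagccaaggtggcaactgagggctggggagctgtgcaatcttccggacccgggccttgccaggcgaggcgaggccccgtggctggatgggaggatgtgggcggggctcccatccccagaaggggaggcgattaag
Tgfbr2: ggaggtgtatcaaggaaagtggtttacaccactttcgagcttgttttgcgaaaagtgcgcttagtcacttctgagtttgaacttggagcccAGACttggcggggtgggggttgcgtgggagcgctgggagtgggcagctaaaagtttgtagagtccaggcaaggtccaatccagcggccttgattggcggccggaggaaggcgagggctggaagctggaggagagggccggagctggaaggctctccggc
GTCT on either strand occurred in 6 of the 7 windows, and 83% of all 27025 windows of this length hold it. GGCGCC, a GC-rich element found in BMP-responsive promoters, occurred in 1 of the 7 (Bmpr2) and in 9.54% of all windows. The longer GTCTAGAC was in none of the 7 and in 0.174% of all windows.

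Library totals ran from 8348897 reads (mesentery on chow, replicate C) to 25397963 reads, and a floor of 3 reads equals 2.12 to 4.22 normalized counts. The sort label was checked with 12 endothelial markers, all of them detected in every group. Their summed level was 130087 to 197697 normalized counts in mesentery on chow and 124198 to 146548 under HFD. In epididymal fat it was 89252 to 106184 on chow and 48051 to 93174 under HFD. Markers of other cells were present as well. The sum of 12 macrophage and leukocyte markers was 2046 to 11442 and 6563 to 27924 in mesentery (chow, then high fat diet) and 7547 to 94351 and 151254 to 381016 in epididymal fat. Sums of 8 pancreatic acinar markers were 26248 to 177798 over the 6 mesentery libraries and 183 to 552 over the 6 epididymal libraries. None of these lists was at 0 as a whole, and the single markers listed at 0 in all 3 libraries of a group were Wt1 (mesothelium, mesentery on chow), Amy2b (acinar, epididymal fat on chow) and Prss2 (acinar, epididymal fat under HFD). Their part in the results below was not tested.

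**Figure D1:**
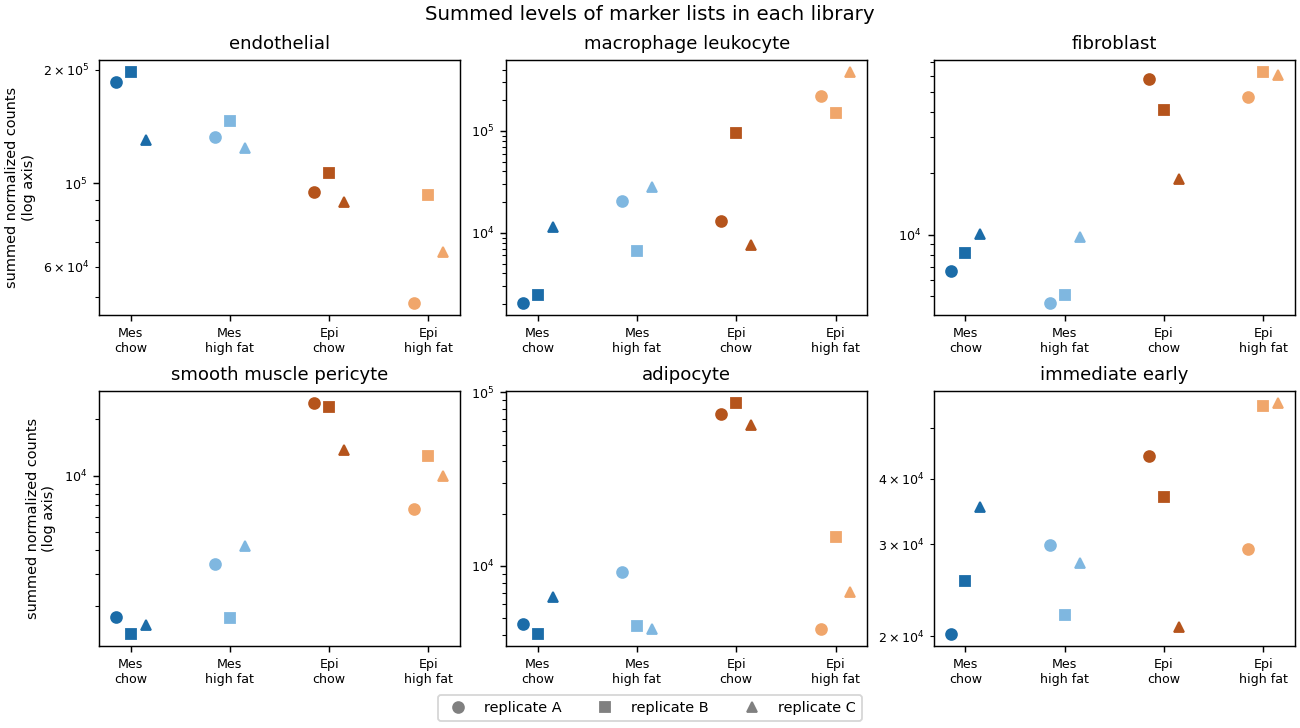
Summed normalized counts of 6 marker lists (log axis) in each library, by tissue (Mes, mesentery; Epi, epididymal fat) and diet; colours are groups and symbols are replicates. The endothelial sum in mesentery on chow (130087 to 197697) overlaps that in mesentery under HFD (124198 to 146548) and lies above both epididymal groups, and the macrophage and leukocyte sum is highest in epididymal fat under HFD (151254 to 381016).

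The first comparison asked how endothelial cells of the epididymal fat pad differ from those of the mesentery. On chow, 6 of the 10 genes were lower in epididymal fat (Eng, Acvrl1, Bmpr2, Smad6, Smad7 and Id1) and 1 was higher (Bmp4) at an adjusted p under 0.05 by limma. Of all 22238 genes tested, 12.8% were called in this contrast, 5.47% lower and 7.32% higher in epididymal fat. On HFD 7 of the 10 genes were again called: Eng, Acvrl1, Bmpr2, Smad6, Smad7 and Id3 lower and Bmp4 higher. There 8.34% of all genes were called, 3.43% lower and 4.91% higher. The median log2 change of the 10 genes was -1.43 on chow and -1.34 under HFD. Over all tested genes the same medians were -0.075 and 0.060. In bulk RNA, fewer cells of a type and less RNA per cell cannot be told apart, so each level is that of the sorted population.

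**Figure D2:**
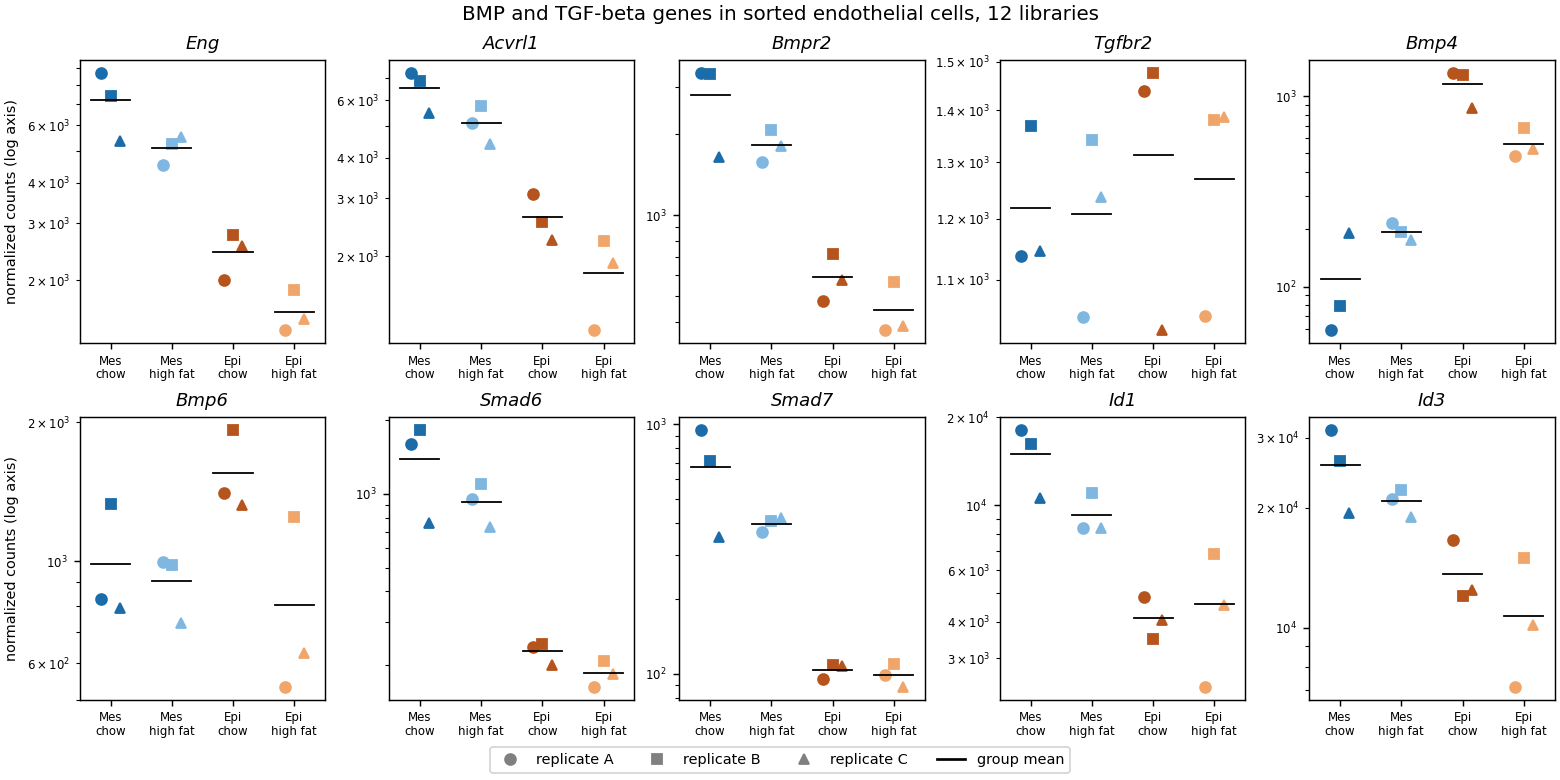
Normalized counts (log axis) of the 10 genes in the 12 libraries, by tissue (Mes, mesentery; Epi, epididymal fat) and diet; symbols are replicates A, B and C and the line is the group mean. Eng, Acvrl1, Bmpr2, Smad6 and Smad7 lie lower in all epididymal libraries than in any mesentery library of the same diet, Bmp4 lies higher, and Tgfbr2 overlaps.

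The coreceptor gene Eng (ENSMUSG00000026814) stood at 8708, 7404 and 5375 normalized counts in mesentery on chow (replicates A, B and C) and at 4547, 5274 and 5525 under HFD. In epididymal fat its values were 2002, 2764 and 2542 on chow and 1405, 1863 and 1522 under HFD. Every mesentery library was above every epididymal library. Its log2 change, epididymal fat minus mesentery, was -1.54 (SE 0.21; limma adjusted p 0.000386) on chow and -1.68 (adjusted p 0.000281) under HFD.

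Acvrl1 (ENSMUSG00000000530), which encodes the type I receptor ALK1, read 7260, 6859 and 5492 in mesentery on chow and 5120, 5761 and 4408 under HFD. The epididymal values were 3101, 2547 and 2244 on chow and 1188, 2231 and 1900 under HFD. The tissues did not overlap on either diet, with log2 changes of -1.32 (SE 0.23; limma adjusted p 0.00261) and -1.56 (adjusted p 0.00119). The single lowest value, 1188, belongs to epididymal replicate A under HFD, which also had the lowest endothelial marker sum (48051).

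Bmpr2 (ENSMUSG00000067336), the type II BMP receptor gene, stood at 3382, 3362 and 1646 normalized counts in mesentery on chow and at 1572, 2082 and 1801 under HFD. In epididymal fat it stood at 478, 713 and 572 on chow and at 373, 565 and 386 under HFD. Mesentery replicate C on chow had less than the other libraries of its group, yet more than any epididymal library. The log2 changes were -2.19 (SE 0.28; limma adjusted p 0.00023) on chow and -2.06 (adjusted p 0.000549) under HFD, larger than those of Eng and Acvrl1 in point estimate; the differences between these genes were not tested.

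Tgfbr2 (ENSMUSG00000032440), the type II receptor gene for TGF-beta, had overlapping values everywhere: 1139, 1368 and 1146 in mesentery on chow, 1044, 1342 and 1237 in mesentery under HFD, 1439, 1476 and 1024 in epididymal fat on chow, and 1044, 1381 and 1386 in epididymal fat under HFD. The tissue change was 0.10 on chow, with a 95% limma interval, not adjusted, of -0.32 to 0.51, and 0.07 under HFD, with an interval of -0.35 to 0.48. Those intervals leave out changes of the size seen for the other receptor genes of the set.

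The inhibitory Smad genes had large tissue differences. Smad6 (ENSMUSG00000036867), whose product blocks mainly BMP receptor signalling, read 1592, 1825 and 757 in mesentery on chow and 956, 1094 and 733 under HFD. It read 237, 245 and 201 in epididymal fat on chow and 163, 208 and 184 under HFD. No epididymal library reached the lowest mesentery value. The log2 changes were -2.51 (SE 0.29; limma adjusted p 0.000102) on chow and -2.31 (adjusted p 0.000299) under HFD.

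Smad7 (ENSMUSG00000025880), whose product inhibits both TGF-beta and BMP receptors, read 949, 711 and 353 in mesentery on chow and 369, 410 and 419 under HFD. In epididymal fat it was nearly flat, at 95.5, 109 and 107 on chow and 98.9, 109 and 88.5 under HFD. The log2 changes were -2.57 (SE 0.30; limma adjusted p 0.000133) on chow and -2.01 (adjusted p 0.0013) under HFD. As for Bmpr2, mesentery replicate C on chow was the lowest of its group.

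The Id genes encode proteins that block differentiation factors of the helix-loop-helix class and are direct BMP targets. Id1 (ENSMUSG00000042745) read 18137, 16247 and 10568 in mesentery on chow and 4856, 3480 and 4044 in epididymal fat on chow. On HFD it read 8355, 11030 and 8371 in mesentery and 2393, 6826 and 4558 in epididymal fat. The tissues did not overlap on either diet. The chow difference was called, with a log2 change of -1.84 (SE 0.33; limma adjusted p 0.0028). The high fat difference of -1.12 was not called (limma adjusted p 0.0547), but it was called in 7 of 24 alternatives. These were the fits without mesentery replicate C on chow (0.0374) or epididymal replicate B under HFD (0.0165), and DESeq2 (0.0174). The rest were limma with columns rescaled to the same total (0.00826), a number covariate (0.0166), a replicate block (0.0253) or a mean of at least 50 (0.0347). Epididymal libraries under HFD were spread widely, with replicate A lowest and replicate B highest.

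Id3 (ENSMUSG00000007872) had the highest counts of the set, 31393, 26210 and 19372 in mesentery on chow and 16590, 12003 and 12478 in epididymal fat on chow. On HFD it read 21093, 22205 and 18975 in mesentery and 7116, 14941 and 10149 in epididymal fat. The tissues did not overlap, but the log2 changes of -0.89 (SE 0.29; limma adjusted p 0.0624) on chow and -1.01 (adjusted p 0.0484) under HFD lay on either side of the threshold. The chow difference was called in 8 of 24 alternatives. Among them were the fits without mesentery replicate C on chow (0.0357), without epididymal replicate A under HFD (0.0262) and without epididymal replicate B under HFD (0.0409). The rest were DESeq2 (0.00578) and limma with the same total (0.0356), a number covariate (0.0234), a mean of at least 50 (0.0371) or libraries 50 to 53 alone (0.0294). The high fat call was lost when any single library was left out, other than mesentery replicate C on chow and epididymal replicate B under HFD, with an adjusted p of 0.0544 to 0.163 in those fits. It was also lost by edgeR (adjusted p 0.181) and kept by DESeq2. By limma it was lost with TMM scaling (0.172), in libraries 50 to 53 alone (0.113) and with no filter (0.0511). It was kept in 9 of 24 alternatives.

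Of the ligand genes, Bmp4 (ENSMUSG00000021835), a ligand that promotes vessel and fat development, was low in mesentery, at 59.2, 78.8 and 191 normalized counts on chow and 215, 193 and 176 under HFD. In epididymal fat it read 1323, 1294 and 868 on chow and 482, 680 and 525 under HFD. Every epididymal library was above every mesentery library. The log2 changes were 3.55 (SE 0.35; limma adjusted p 3.4e-05) on chow and 1.52 (adjusted p 0.0188) under HFD. The second call was lost without mesentery replicate B (adjusted p 0.0702), epididymal replicate B (0.0722) or epididymal replicate C (0.0675) of the high fat groups. It was also lost with columns rescaled to the same total (limma adjusted p 0.0835) and was kept in 20 of 24 alternatives. The lowest read count of any of the 10 genes was 52, for Bmp4 in mesentery on chow. Marker sums of other cells also differed between the tissues: 10 smooth muscle and pericyte markers summed to 1426 to 1752 in mesentery on chow and 13684 to 24628 in epididymal fat on chow, and 8 adipocyte markers to 4048 to 6579 and 64440 to 87276. Under HFD the smooth muscle and pericyte sums were 1741 to 4236 and 6652 to 12797, while the adipocyte sums overlapped (4332 to 9223 and 4332 to 14757). The sums of 8 fibroblast markers were 6666 to 10114 and 18859 to 57798 on chow and 4642 to 9742 and 47076 to 62836 under HFD, with 7 of 8 and 8 of 8 markers called higher in epididymal fat. Their part in the Bmp4 difference was not tested.

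Bmp6 (ENSMUSG00000039004), a ligand that endothelial cells are known to make and that controls hepcidin in the liver, read 829, 1331 and 791 in mesentery on chow and 994, 983 and 732 under HFD. In epididymal fat it read 1403, 1927 and 1323 on chow and 533, 1246 and 630 under HFD. The tissues overlapped on both diets. The chow change of 0.68 (SE 0.30) was not called by limma (adjusted p 0.182), and the high fat change was -0.26, with an interval not adjusted of -0.91 to 0.40.

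**Figure D3:**
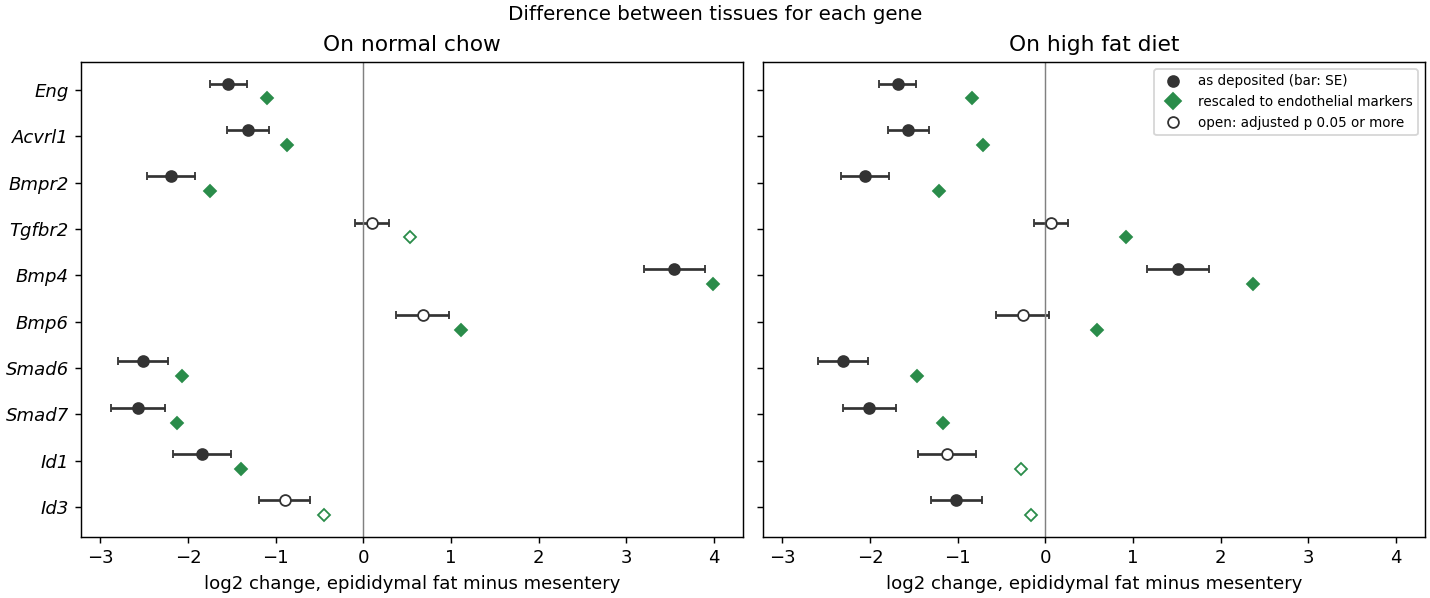
Log2 change, epididymal fat minus mesentery, of the 10 genes on each diet: circles with SE bars on the deposited scale, diamonds after each library was rescaled to the geometric mean of 12 endothelial markers; open symbols were not called. Eng, Acvrl1, Bmpr2, Smad6 and Smad7 stay below 0 and Bmp4 above 0 on both scales, while under HFD Id1 and Id3 move to -0.27 and -0.16 after rescaling.

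Because the endothelial marker sum was lower in epididymal libraries, the genes were also set against it, in an alternative chosen after the data were seen. On chow 6 of the 12 markers were themselves called lower in epididymal fat and 1 higher, and Cdh5 changed by 0.02. Under HFD 8 of the 12 were called lower and 1 higher, with a median of -1.05, against -0.92 on chow. Changes of single markers on chow ran from -2.10 to 4.25. All 12 have the same weight in a geometric mean, so the highest value draws that mean up in epididymal libraries on chow. The correction on chow thus does not follow the median marker, and a rescaling without the marker at 4.25 was not run. Rescaling each library to the geometric mean of the 12 markers moved the median of all tested genes by 0.41 on chow and 0.82 under HFD. These medians then stood at 0.33 and 0.88. Limma called 4239 of the 22238 genes on chow and 6793 under HFD after rescaling, against 2843 and 1854 before it. On that scale Eng was -1.10 on chow and -0.83 under HFD, Acvrl1 -0.88 and -0.71, and Bmpr2 -1.75 and -1.21. Smad6 was -2.07 and -1.46 and Smad7 -2.13 and -1.16. All of these were called by limma, as was Bmp4 at 3.99 and 2.37. Id1 was called on chow (-1.40) and not under HFD (-0.27, adjusted p 0.421), and Id3 was called on neither (-0.45 and -0.16). Bmp6 was called higher in epididymal fat on both diets (1.12 and 0.59), and Tgfbr2 was called higher under HFD (0.92), so for these genes the call rests on the scale. Id3 under HFD thus lost its call on this scale.

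The descriptions give each mesentery library a number that 1 epididymal library of the same diet shares, which allows 6 same-number differences. Eng, Acvrl1, Bmpr2, Smad6, Smad7, Id1 and Id3 were lower in the epididymal library in 6 of 6. Bmp4 was higher in 6 of 6, by 1.16 to 4.46 on the log2 scale. Smad7 ranged from -3.30 to -1.71 and Smad6 from -2.89 to -1.91. Tgfbr2 was higher in 5 of 6 and Bmp6 in 4 of 6. The share of all genes with 6 of 6 in the same direction was not computed. Nor was the share with tissue groups that did not overlap, so whether either trait sets these genes apart from others was not tested. For comparison, Pecam1, a general endothelial adhesion molecule, was lower in 6 of 6 (-1.38 to -0.66) and Cdh5, vascular endothelial cadherin, in 4 of 6. Within the libraries numbered 50 to 53 the chow changes were -1.77 for Eng, -2.53 for Bmpr2, -2.82 for Smad6, -3.00 for Smad7 and 4.24 for Bmp4. Numbers 87 (chow) and 88 (HFD) gave -1.08 and -1.69 for Eng, -1.52 and -2.07 for Bmpr2, -1.91 and -2.54 for Smad6, -1.71 and -1.89 for Smad7 and 2.17 and 1.16 for Bmp4. No test was run within that pair of numbers.

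**Figure D4:**
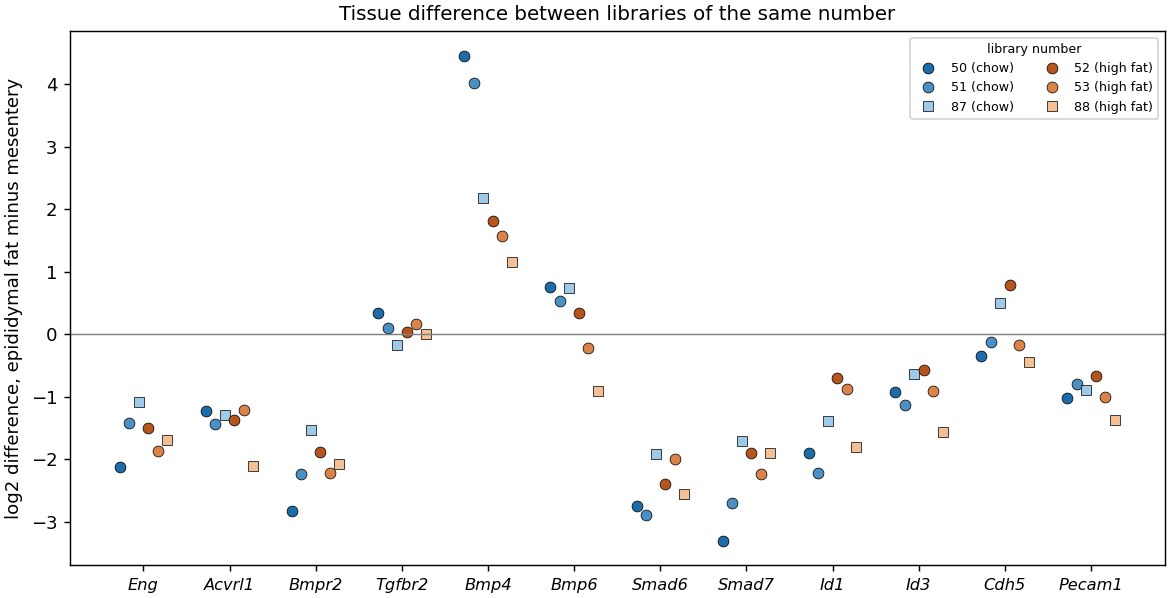
Log2 difference, epididymal minus mesentery library of the same number, for the 10 genes and for Cdh5 and Pecam1; circles are numbers 50 to 53, squares 87 and 88, blue chow and orange high fat diet. Bmp4 is above 0 in 6 of 6 (1.16 to 4.46), and Smad6 and Smad7 are below 0 in 6 of 6, at -1.71 or lower.

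The second comparison asked what HFD changed within a tissue. In mesentery none of the 10 genes was called by limma, edgeR or DESeq2, where 0.0135% of all genes were called by limma. At an unadjusted p under 0.05 there were 2 of the 10, against 6.15% of all genes. No gene of the set had diet groups that did not overlap; 5.14% of all genes were lower under HFD without overlap. Eng changed by -0.46 (SE 0.21; limma adjusted p 0.792) and Bmp4 by 1.00 (SE 0.35; adjusted p 0.67). The other 8 genes had log2 changes between -0.67 (Id1) and -0.01 (Tgfbr2). The median over the 10 genes was -0.41, against -0.0023 over all genes tested.

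One mesentery library stood apart. In replicate C on chow, Bmp4 was 191, inside the range of the high fat libraries (176 to 215), whereas replicates A and B were at 59.2 and 78.8. Without that library Bmp4 was called higher under HFD, with a log2 change of 1.49 (limma adjusted p 0.042). Bmpr2, Smad6 and Smad7 in the same library were at 1646, 757 and 353, within or below the range of the high fat libraries. That library also had the fewest reads (8348897), an endothelial sum of 130087 against 185341 and 197697, a macrophage and leukocyte sum of 11442 against 2046 and 2483, and an acinar sum of 26248 against 177798 and 143168. The part of these in the result was not tested.

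In epididymal fat none of the 10 genes was called by limma, edgeR or DESeq2 under HFD against chow, where 0.549% of all genes were called. At an unadjusted p under 0.05 there were 4 of the 10, against 6.94% of all genes: Eng, Acvrl1, Bmp4 and Bmp6. The same 4 were lower under HFD in every library than in any chow library, as were 6.57% of all genes. Eng changed by -0.61 (SE 0.21; limma adjusted p 0.359) and Acvrl1 by -0.60 (SE 0.23; adjusted p 0.5). Bmp4 changed by -1.03 (SE 0.35; adjusted p 0.348) and Bmp6 by -1.03 (SE 0.30; adjusted p 0.218). Bmp6 was called without epididymal replicate B under HFD (-1.40, adjusted p 0.0341). The other 6 genes lay between -0.42 (Bmpr2) and 0.04 (Id1). The median over the 10 genes was -0.41, against 0.095 over all genes tested.

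The marker sums moved in the same comparison. From chow to HFD in epididymal fat, the endothelial sum went from 89252 to 106184 down to 48051 to 93174. The macrophage and leukocyte sum went from 7547 to 94351 up to 151254 to 381016. The adipocyte sum went from 64440 to 87276 down to 4332 to 14757, and the smooth muscle and pericyte sum from 13684 to 24628 down to 6652 to 12797. The fibroblast sum, 18859 to 57798 on chow and 47076 to 62836 under HFD, overlapped, with 2 of its 8 markers called higher under HFD by limma and a median change of 1.61. Relative to the 12 endothelial markers, Eng changed by -0.056 and Acvrl1 by -0.054, while Bmp4 and Bmp6 each changed by -0.48 and were not called. What part the other cells had in the diet differences was not tested.

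**Figure D5:**
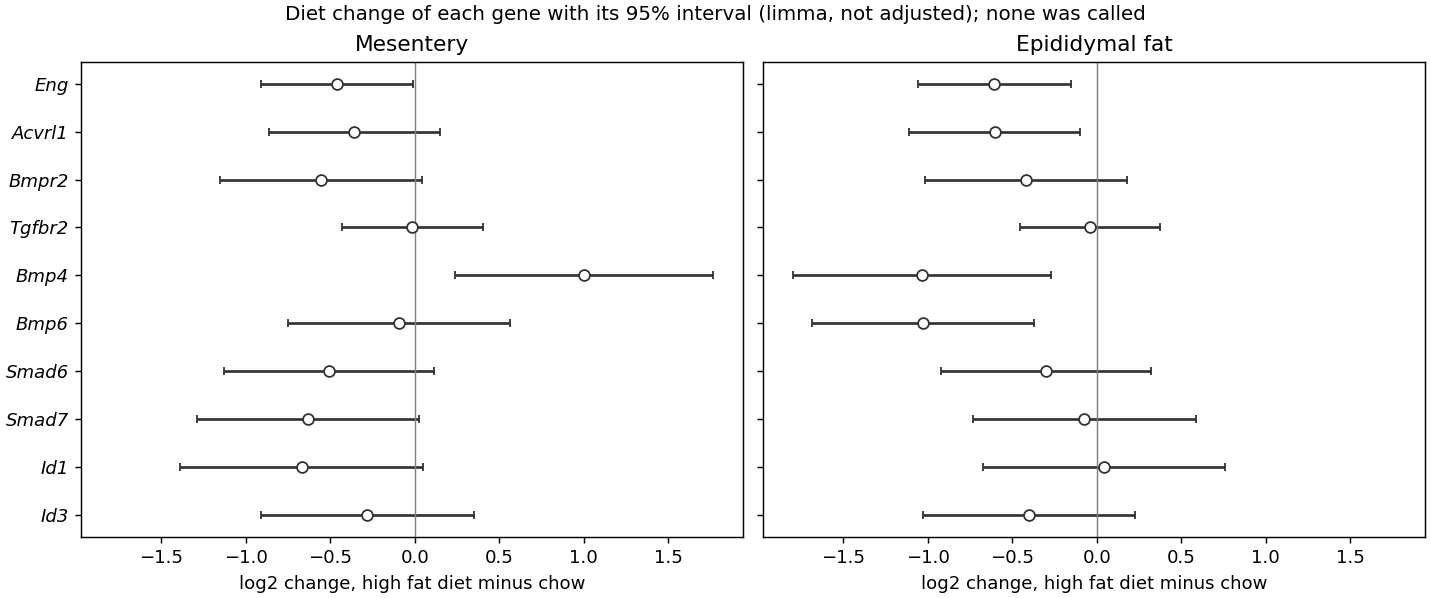
Log2 change under HFD against chow for the 10 genes in each tissue, with the 95% interval from limma, not adjusted for the number of genes. None was called; in epididymal fat the intervals of Eng, Acvrl1, Bmp4 and Bmp6 lie below 0, and in mesentery those of Eng (below) and Bmp4 (above) do not reach 0.

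The third comparison asked whether the diet changed the difference between tissues. None of the 10 genes was called by limma, edgeR or DESeq2 in this interaction, where limma called 0.0045% of all genes. There were 2 of the 10 at an unadjusted p under 0.05, against 4.71% of all genes. Bmp4 had the largest point estimate of the set: its epididymal excess was 3.55 on chow and 1.52 under HFD, a difference of -2.03 (SE 0.50; limma adjusted p 0.396). It was called without mesentery replicate C on chow (-2.53, adjusted p 0.0222) and among the libraries numbered 50 to 53 alone (-2.54, adjusted p 0.0423). Bmp6 followed, with -0.93 (SE 0.43; adjusted p 1). The other 8 genes lay between -0.25 (Acvrl1) and 0.71 (Id1). In the same contrast none of the 8 adipocyte markers was called by limma, but all 8 had a change below 0 and an unadjusted p under 0.05 (median -3.19). The 10 smooth muscle and pericyte markers had a median of -1.47, with 4 at an unadjusted p under 0.05. Their part in the Bmp4 and Bmp6 values was not tested.

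Levels of different genes were compared per kilobase of exon, with lengths from GENCODE M21. Id3 and Id1 led in all 4 groups, at 14326 and 12917 normalized counts per kilobase in mesentery on chow and 7644 and 3558 in epididymal fat on chow. They overlapped over libraries in mesentery on chow and in epididymal fat under HFD. Eng and Acvrl1 came next, at 1769 and 1533 in mesentery on chow, and overlapped in all 4 groups. Smad6 followed in both mesentery groups, at 434 on chow and 289 under HFD, overlapping Bmp6. Bmp4 was last in mesentery, at 48.9 on chow and 86.5 under HFD, and at rank 5 in epididymal fat, at 517 and 250. There it overlapped Acvrl1, Eng and Bmp6 on chow and Acvrl1 and Bmp6 under HFD. Smad7 was last in epididymal fat, at 23.0 and 21.9 per kilobase, and Bmpr2 next to last, at 32.7 and 24.5; these overlapped under HFD. In mesentery under HFD Bmpr2, Smad7 and Bmp4 overlapped as neighbours, and on chow Bmpr2, Tgfbr2, Smad7 and Bmp4 did.

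Across all 12 libraries, the gene whose log2 level was most like that of Eng, over the 9883 genes whose mean reached 100, was Bmpr2, with a Pearson r of 0.988. Cyyr1 (0.985) and Hecw2 (0.982) came next. For Id1 the nearest were Srgap2 (0.967), Ankrd29 (0.960) and Gch1 (0.958), and Id3 had rank 10 (0.950). Bmp4 ran the other way, at -0.84 with Eng and -0.86 with Id1, and Tgfbr2 was near 0 with both (-0.13 and 0.04). The 12 points fall into clusters by tissue and share library scaling, so these values describe mainly the tissue contrast and carry no test.

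Beyond the 10 genes, 81 other pathway genes were listed, of which 70 had a row and 67 were tested. On chow 20 of the 67 were called between tissues by limma, 12 higher and 8 lower in epididymal fat, where 12.8% of all genes were called, 7.32% higher and 5.47% lower. The median was 0.39, against -0.075 over all genes tested. With HFD 12 were called, 6 each way, where 8.34% of all genes were called, and the median was 0.20, against 0.060. Ligands were called in both directions: on chow 5 of 17 were higher and 2 lower. Inhbb, an activin subunit gene, was 824 ± 521 (SD, n = 3) in mesentery and 103 ± 28.7 in epididymal fat on chow. Tgfb2, a TGF-beta ligand gene, was 714 ± 191 and 211 ± 53.2. Higher in epididymal fat on chow were Gdf10 (47.8 ± 37.9 in mesentery and 448 ± 274), Bmp7 (11.4 ± 5.25 and 150 ± 126), Tgfb3 (42.2 ± 5.22 and 219 ± 54.6) and the activin subunit gene Inhba (4.73 ± 5.93 and 333 ± 252). The mesentery value of Inhba is close to the floor of 3 reads, so no fold is given.

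Of the other receptors, Tgfbr1, the type I receptor gene for TGF-beta, was lower in epididymal fat on chow (-1.19, limma adjusted p 0.00448) and Bmpr1a, a type I BMP receptor gene, was higher (1.80, adjusted p 0.029); the remaining 8 of 10 were not called. None of the 10 was called by limma or edgeR under HFD, 4 having an unadjusted p under 0.05 by limma, whereas DESeq2 called Bmpr1a (1.48, adjusted p 0.0314). By limma Bmpr1a was called there without mesentery replicate B (adjusted p 0.0244) or C (0.0265) on chow, and Acvr1b, a type I activin receptor gene, with the number range as a covariate (-1.20, adjusted p 0.0444). Other scalings or libraries 50 to 53 alone also gave calls for the receptor genes Acvr1, Acvr2a or Tgfbr3. Among 15 inhibitors tested, the ones lower on chow included Skil (-1.68), a repressor of Smad-driven transcription, and Smurf2 (-1.26), a ubiquitin ligase that acts with inhibitory Smads. Twsg1 (1.63) and Chrdl1 (3.68), both secreted BMP-binding proteins, were higher. The modulator Lrg1 (3.14), a secreted protein that binds endoglin, was higher, at 460 ± 552 (SD, n = 3) in mesentery against 2477 ± 165; its log2 change was 4.12 without mesentery replicate C on chow. Of 9 further targets on chow, 3 were called. Id4, a relative of Id1, was lower (-3.23, limma adjusted p 6.3e-05) and so was Hey1 (-1.08), a Notch and BMP target. Ccn2 was higher, at 704 ± 208 (SD, n = 3) in mesentery and 1888 ± 943 in epididymal fat. Its call was lost without mesentery A or epididymal B of the chow groups. Of 6 other Smad genes 1 was called, Smad1, which was higher (1291 ± 110 and 3192 ± 657), also under all 24 alternatives.

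On HFD Id4 (-3.55), Tgfb2 (-2.16), Inhbb (-1.63), Smurf2 (-1.30) and Atoh8 (-0.97), a BMP-responsive transcription factor gene, were lower in epididymal fat by limma. Gdf10 (2.29), Gdf15 (2.12) and Chrdl1 (3.09) were higher, as were 3 genes with few counts in mesentery. Of these, Fst, the activin antagonist follistatin, stood at 4.94 ± 8.56 (SD, n = 3) in mesentery and 159 ± 8.79 in epididymal fat. Bmper, a BMP-binding protein gene, stood at 8.73 ± 8.90 and 139 ± 29.6, and Gdf3, a TGF-beta family ligand gene, at 18.6 ± 18.1 and 392 ± 119. The calls for Gdf10, Id4, Inhba, Inhbb, Lrg1, Skil, Tgfb2, Tgfb3 and Twsg1 on chow, and for Bmper, Id4 and Tgfb2 under HFD, were kept under all 24 alternatives. Of the 15 genes named on chow by the size of their change that is 9, and of the 11 under HFD it is 3. The count of called pathway genes under HFD fell from 12 to 5 without mesentery replicate B and to 6 without epididymal replicate C, both of the high fat groups. Over all genes it fell from 1854 to 815 and 728 in the same fits. Without a library the chow count ranged from 14 to 25, and that of all genes from 1516 to 3278.

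The other pathway calls named by size depended on single libraries or on another setting. Tgfbr1 and Smurf2 on chow and Smurf2 under HFD lost their calls only on the endothelial marker scale (limma adjusted p 0.121, 0.0563 and 0.258). Hey1 on chow, and Inhbb and Atoh8 under HFD, were not called on that scale either. On chow, Chrdl1 was no longer called without mesentery A, mesentery B or epididymal A of the chow groups (limma adjusted p 0.0551 to 0.0803), and Bmpr1a without the same 3 or epididymal B (0.0718 to 0.134). Bmp7 was not called without any 1 of the 3 mesentery libraries or epididymal A or B of the chow groups (0.0563 to 0.175), and Hey1 in 9 of the 12 such fits, those without mesentery C on chow and epididymal A and B under HFD being the exceptions (0.0526 to 0.171). The log2 change of Bmpr1a was 1.17 without mesentery B on chow and that of Gdf10 3.89 without mesentery C on chow. Under HFD, Inhbb was not called without mesentery A or B (0.0516 to 0.0776), Fst without mesentery A or B or epididymal C (0.0522 to 0.0651), Gdf3 without mesentery B or epididymal A or C (0.0561 to 0.0925), and Gdf10 without mesentery B or C or epididymal B or C (0.0722 to 0.111), all of the HFD groups. Gdf15 lost its call in 6 of the 12 fits (mesentery B and C and epididymal A, B and C under HFD, and epididymal A on chow; 0.0517 to 0.148). Atoh8 lost it in 7 (mesentery A and B and epididymal A, B and C under HFD, and mesentery A and epididymal B on chow; 0.0511 to 0.16). Chrdl1 lost it in 8 (mesentery A and B and epididymal B and C under HFD, and mesentery A and B and epididymal A and B on chow; 0.0501 to 0.181), and its log2 change ran from 2.17 without mesentery A to 4.22 without mesentery C under HFD.

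The diet moved 1 of the 67 pathway genes in epididymal fat past the threshold, where 0.549% of all genes were called, and none in mesentery by limma (1 by DESeq2 and none by edgeR in mesentery). Over all genes DESeq2 called 150 in mesentery and edgeR 1. Gdf3 rose in epididymal fat, from 0.783, 25.2 and 8.17 normalized counts on chow to 492, 261 and 424 under HFD (limma adjusted p 0.0491). The groups did not overlap, although the chow values run from below the floor upward. The call was kept in 7 of 24 alternatives, and leaving out a single library gave an adjusted p of 0.022 to 0.34; it stayed under 0.05 only without mesentery C on chow, mesentery B under HFD or epididymal B on chow. The macrophage and leukocyte sum rose in the same libraries, from 7547 to 94351 on chow to 151254 to 381016, and its part in the Gdf3 change was not tested. At an unadjusted p under 0.05 there were 9 pathway genes of the 67 for the diet in mesentery, 12 in epididymal fat and 11 in the interaction, against 6.15%, 6.94% and 4.71% of all genes. None was called in the interaction by limma, edgeR or DESeq2.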

How the data were processed

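Bulk RNA-seq of 12 libraries was used. The deposited values are a signal on a linear scale: each gene's reads, as normalized by the authors. Per the submitters' processing notes, STAR 2.7.9a, featureCounts, Subread, DESeq2 1.34.0 and build mm39 were used, with no roles given. Annotation and strand use are not given in the sources used here. Every value (100%, tolerance 0.01) equalled whole reads multiplied by 1 step per library, so reads were recovered for edgeR and DESeq2. No gene row totals under 51 reads. Floors cover counting error only.

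The 22238 genes with a mean of at least 10 were fitted with limma 3.58.1 (R 4.3.3; trend) on log2(normalized count + 1), with 4 group means from the titles and 5 contrasts: diet in each tissue, tissue on each diet, and their interaction. P-values were adjusted over all genes by the Benjamini-Hochberg method and called under 0.05, two-sided. The fold scale understates low genes. The script was tested on simulated data. Alternatives were pseudocounts 0.5 and 5, other filters (none, 50) and scalings, edgeR 4.0.16, DESeq2 1.42.0, a number covariate, a replicate block, libraries 50 to 53 alone, each library left out, and rescaling to endothelial markers, added after the data were seen.

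The 10 genes and all lists were chosen with earlier results of these data known. Changes are given for genes called, with an unadjusted p under 0.05 or with groups that do not overlap, and for all 10 between tissues; the rest by range. Other pathway genes are named when called, when the higher group's mean reached 100, up to 8 each way by size of change. Ccn2 and Smad1 are named in addition and are left out of the counts of named genes. Likeness was ranked by Pearson r over 12 libraries. Exon lengths came from GENCODE M21 and promoter windows from RefSeq; windows of Bmpr2, Id3 and Bmp6 overlap annotated exons and are not printed. The reference here is GRCm38 and the files use mm39, so the only coordinates given are those of the RefSeq promoter windows, in GRCm38.p6.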

Additional observations from a re-analysis of the deposited data

How the results depend on the processing

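Each result was recomputed under 24 alternatives. Of 672 values for the 10 genes, 627 kept their direction and side of the threshold, 19 lost a call, 21 gained one and 5 changed sign. The sign changes were of values not called in the fit described above. Tgfbr2 between tissues on HFD was -0.12 with columns rescaled to the same total. With a library left out it was -0.032 to 0.20, below 0 without mesentery replicate A or epididymal replicate C of the HFD groups. Bmp6 between tissues on HFD was 0.063 in libraries 50 to 53 alone and 0.59 on the endothelial marker scale. The latter value was called (limma adjusted p 0.0383) and is counted here only as a sign change. Of 648 values for named pathway genes, 552 were unchanged in call and 96 lost it. The number of the 10 genes called ranged, with a library left out, from 0 to 1 for the diet in mesentery, in epididymal fat and in the interaction, and was 1 in the interaction within libraries 50 to 53. Over all genes the fits with a library left out called 1 to 37, 23 to 176 and 1 to 20 in these contrasts. The interaction within libraries 50 to 53 had 11 calls over all genes. Pathway genes called for the diet in mesentery numbered 1 by DESeq2 and 1 in libraries 50 to 53, and 0 to 1 with a library left out. Over all genes these settings called 150, 20 and 1 to 37, against 3 in the fit described above. In epididymal fat the count of 1 became 0 with a pseudocount of 0.5, no filter, a mean of at least 50, the same total, TMM scaling, edgeR, or libraries 50 to 53 alone, and 2 on the endothelial marker scale and by DESeq2. It was 0 to 1 with a library left out. Over all genes the endothelial marker scale called 516, DESeq2 563 and the fits with a library left out 23 to 176, against 122 in the fit described above. Those settings with a count of 0, before any library was left out, called 29 to 174 of all genes. Between tissues the pathway count was 31 on chow in libraries 50 to 53 alone, where 4349 of all genes were called, against 2843 with all libraries. On HFD it was 31 on the endothelial marker scale, 6 by edgeR and 5 to 16 with a library left out. Over all genes these HFD settings called 6793, 1021 and 728 to 2508, against 1854 in the fit described above. The cause was not tested. Rescaling to the same total shifted the median of all genes by 0.13 for the mesentery diet contrast, -0.14 for the epididymal one, -0.18 between tissues under HFD and -0.27 in the interaction.

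With a replicate block (the letter for the diet, the number between tissues), 7 of the 10 genes were called between tissues on chow and 8 on HFD, and 0 for the diet in either tissue. Pathway genes called numbered 21, 15, 0 in mesentery and 0 in epididymal fat. Over all genes the block fit called 2816, 1890, 4 and 104 in the same order. Correlations of the deviations of same-number libraries from their group means ran from 0.03 to 0.58 on chow (mean 0.38). Under HFD they ran from -0.15 to 0.15 (mean -0.039). Deviations from a group mean sum to 0, so the means for different numbers (-0.18 and 0.023) are tied to these and are no separate comparison. The correlations do not settle whether the number is a pairing. Fits other than the block did not use it as one, and whether libraries of 1 number come from the same mice is not stated.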
